A study of Rattus norvegicus with 48 samples.

Results

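The transcripts described here encode the subunits of the mitochondrial respiratory chain and of the ATP synthase in rat lung. Members were chosen by gene name alone: names of the form Nduf plus a letter a, b, c, s or v and a number, names that begin with Cox4 to Cox8, Uqcr or Atp5, the names Sdha to Sdhd, and the mitochondrial genes whose names begin with Mt-nd, Mt-co, Mt-cyb or Mt-atp. Of 32285 gene identifiers in the deposited tables, 96 fitted this rule under 91 names. With the most counted identifier kept for each name and a mean of at least 1 CPM (counts scaled to a common library size), 87 genes remained, 75 coded in the nucleus and 12 in the mitochondrial genome. The nuclear members were 31 subunits of complex I, 4 of complex II, 7 of complex III, 16 of complex IV and 15 of complex V, and 2 genes (Atp5s and Atp5sl) that carry an Atp5 name but are assigned to no complex here. The mitochondrial members were 7 subunits of complex I, 3 of complex IV and 2 of complex V. The 4 names under the limit were Atp5hl1 at a mean of 0.120 CPM, Cox8c at 0.00355 CPM, and Cox6c1 and Cox7b2 at 0 CPM in every library. The members nearest above the limit were the tissue isoforms Cox6a2, Cox6b2 and Cox8b, with means of 1.97, 2.42 and 3.88 CPM, so no name lay close to it on either side. All 87 members passed the count filter at each day.

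The lungs came from 48 male Sprague-Dawley rats, in 6 groups of 8. Animals inhaled either filtered air or a mixture of fracking sand dust at 30 mg/m3 and diesel particles at 1.0 mg/m3, by whole-body exposure for 6 hours a day over 4 days. Tissue was collected 1, 7 or 27 days later, with separate air controls at each time, and RNA from a piece of each lung was sequenced as a stranded mRNA library. No genotype or further treatment distinguishes the groups, the labels give no age, and each day has its own deposited table, so day and table cannot be told apart.

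Oxidative phosphorylation is carried out by 5 complexes of the inner mitochondrial membrane. Complexes I and II feed electrons from NADH and succinate into ubiquinone, complex III passes them to cytochrome c, complex IV passes them to oxygen, and complex V uses the resulting proton gradient to make ATP. Most subunits are nuclear genes whose proteins are imported, while the mitochondrial genome encodes some of the hydrophobic membrane subunits of every complex but II and is read as long transcripts by its own polymerase. Lung tissue draws on the chain in alveolar type 2 cells, which make surfactant, and in ciliated airway cells. Whole lung mixes these with many other cells, so that in these samples fewer cells of a type and less RNA per cell cannot be told apart.

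Libraries held 9445675 to 14400317 counts (median 12004516.5). Within groups, 4 pairs of libraries differed by only 1.44 to 1.67 times what counting noise alone gives, against at least 2.35 times for the other 164 pairs. Each such pair was averaged to 1 animal in means and SDs (n = 7 in those groups), and the tests below were also run with each pair summed. Counts of 8 of 8 exposed libraries below or above the air mean took the mean of all 8 air libraries, with no pair averaged. The pair at day 27 is air libraries 3 and 6. Lung markers were abundant: the 5 alveolar type 2 markers summed to 14129 to 21939 CPM over the 48 libraries. Heart muscle markers, which can enter a lung piece through the sleeves of the pulmonary veins or neighbouring atrium, summed to between 16.4 and 407 CPM, and their level is given beside the results it touches.

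Nuclear respiratory chain promoters are textbook targets of the ETS-family factor GABP, of NRF1 and of YY1, and their sequences are shown because the nuclear members moved together at day 27. RefSeq promoter windows of the rat build GRCr8 (300 bases, from 250 before to 50 after the annotated start) were matched to 66 of the 75 nuclear members, by symbol or synonym. The ETS core CCGGAAG was present in 30.3% of these 66 windows, against 9.22% of all 27457 windows. The NRF1 core GCANGCGC was present in 31.8% against 9.84%, and the YY1 core AAGATGGCG in 13.6% against 1.93%. Any of the 3 was present in 60.6% of member windows, against 18.6% of all windows and 22.6% of the 19005 windows of protein-coding genes. Both strands were searched, AAG is shared by the ETS and YY1 cores so that 1 stretch can hold both, and the palindromic form GCGCATGCGC counts as 2 overlapping NRF1 matches. The 100 bases before the start are printed 5′ to 3′ on the gene's strand, with matches in capitals (CTTCCGG is the ETS core read on the other strand). Every window shown holds a core, which is not so for all called members. Of the 20 called at day 27 that have a window, 15 held a core. Ndufb11, Ndufa7 and Ndufb2, also called, held none in their 300 bases and are not shown. The first 6 genes shown were called lower in exposed than in air lungs at day 27. The last pair, Uqcrc2 and Sdha, hold the same cores and were not called.
Cox5b (chr9:46417737-46417836, plus strand): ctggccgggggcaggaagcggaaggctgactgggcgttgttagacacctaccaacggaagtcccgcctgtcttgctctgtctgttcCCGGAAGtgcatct
Ndufs8 (chr1:210573699-210573798, minus strand): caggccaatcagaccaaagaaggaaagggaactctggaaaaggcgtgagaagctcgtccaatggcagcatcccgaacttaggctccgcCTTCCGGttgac
Uqcrq (chr10:38089979-38090078, minus strand): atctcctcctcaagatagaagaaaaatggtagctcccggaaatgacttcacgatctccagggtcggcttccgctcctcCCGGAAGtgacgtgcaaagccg
Cox8a (chr1:213833624-213833723, minus strand): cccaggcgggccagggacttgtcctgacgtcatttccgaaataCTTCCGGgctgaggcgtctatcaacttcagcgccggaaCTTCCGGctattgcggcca
Ndufa11 (chr9:1637514-1637613, plus strand): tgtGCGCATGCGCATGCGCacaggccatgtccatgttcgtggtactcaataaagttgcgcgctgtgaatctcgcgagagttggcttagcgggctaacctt
Atp5g2 (chr7:135678219-135678318, minus strand): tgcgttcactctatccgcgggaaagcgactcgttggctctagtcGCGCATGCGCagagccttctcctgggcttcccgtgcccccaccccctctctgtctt
Uqcrc2 (chr1:184599140-184599239, plus strand): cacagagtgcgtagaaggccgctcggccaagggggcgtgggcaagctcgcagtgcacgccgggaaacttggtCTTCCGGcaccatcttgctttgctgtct
Sdha (chr1:30764453-30764552, plus strand): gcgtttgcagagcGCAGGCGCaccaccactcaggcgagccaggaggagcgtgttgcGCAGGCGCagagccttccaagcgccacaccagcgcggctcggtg

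At day 27 most nuclear subunit transcripts were lower in exposed than in air lungs, and the mitochondrially coded ones as a group were not. Throughout, fell and drop mean lower in exposed than in air libraries of the same day, not a decline over time. Of 75 nuclear members, 73 had a log2 fold change below 0 and 25 fell by edgeR's quasi-likelihood test at an adjusted p under 0.05, with none called higher. That is 33.3% of the nuclear members, where 3.33% of the 14192 genes tested were called lower and 2.18% were called higher. The median log2 fold change was -0.20 over the nuclear members, 0.04 over the 12 mitochondrial members and -0.01 over all genes tested. At an unadjusted p under 0.05, 58 of the 75 were lower, where 14.3% of all genes were. The calls were close to the threshold. With air libraries 3 and 6 summed to 1 animal, 0 of the 87 members had an adjusted p under 0.05 (0.147% of all genes were called lower), although the nuclear median was still -0.20 and 56 of the 75 were lower at an unadjusted p under 0.05 (12.8% of all genes). Over time, the nuclear median was -0.01 from exposed day 1 to exposed day 27 and 0.15 from air day 1 to air day 27.

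The summed level of the nuclear members was also lower in exposed lungs, although the groups overlapped. At day 27 the sum was 5993 CPM in the lowest air library, 6590 at the median and 7578 in the highest. In exposed libraries it was 5549, 5887 and 6329 CPM. All 8 exposed libraries lay below the air median and 7 of 8 lay below the lowest air library, with means of 6556 ± 569 CPM (SD, n = 7) and 5863 ± 245 CPM (SD, n = 8), a difference of -10.6%. The 12 mitochondrial members summed to a median of 29657 CPM in air (26243 to 31616) and 29967 CPM in exposed lungs (26648 to 32413), and 4 of 8 exposed libraries lay on either side of the air median. The ratio of the mitochondrial to the nuclear sum therefore stood at a median of 4.49 in air (3.93 to 5.28) and 5.28 in exposed lungs (4.53 to 5.49), and 8 of 8 exposed libraries lay above the air median.

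**Figure D1:**
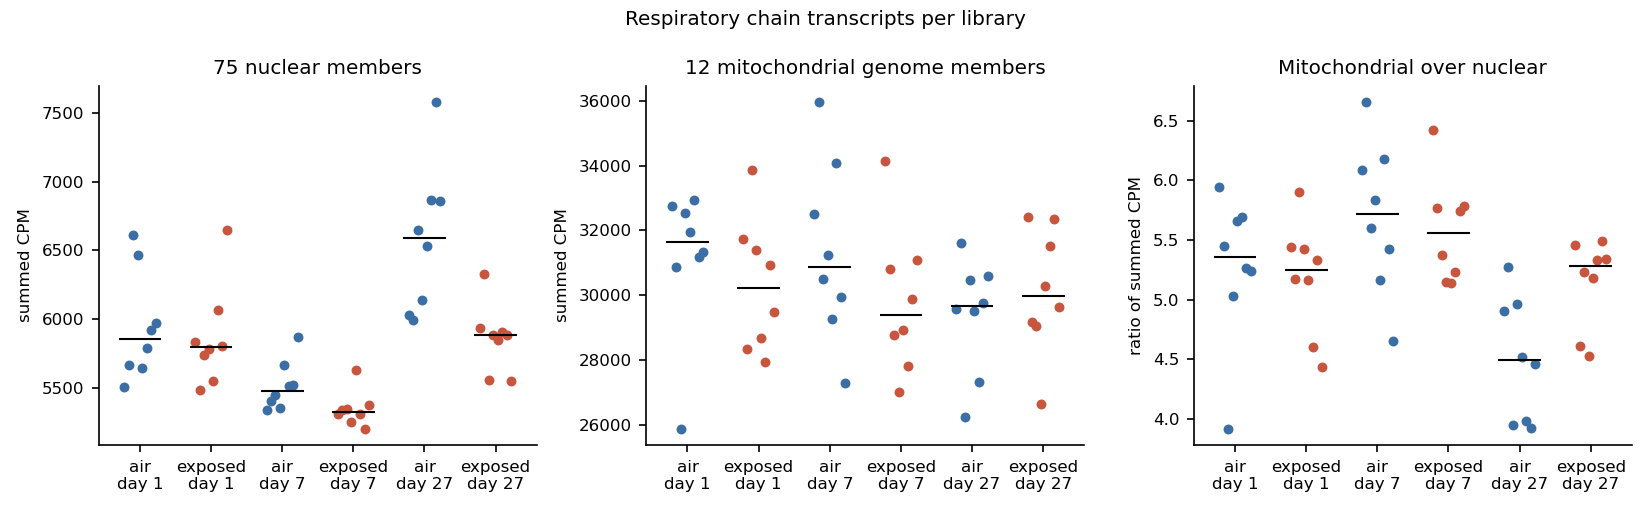
Summed CPM of the 75 nuclear members (left), of the 12 mitochondrial genome members (middle) and their ratio (right) in each of the 48 libraries, by group; blue is air, red is exposed, bars are medians. The vertical axes do not start at 0. The nuclear sum of the air group at day 27 (median 6590 CPM) stands above that of the exposed group of that day (5887 CPM), while the mitochondrial sums overlap.

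Complex I, the NADH dehydrogenase and the largest of the complexes, had 31 nuclear members, all below 0 at day 27, with a median log2 fold change of -0.21 and 11 called lower. Ndufb11, an accessory subunit of the membrane arm, stood at 65.3 CPM in the lowest, 70.6 in the median and 87.0 in the highest air library, and at 55.7, 59.96 and 66.0 CPM in exposed ones. Only the highest exposed library overlapped the air range, and Ndufb11 fell by 0.28 ± 0.0552 (SE) on the log2 scale, at an edgeR adjusted p of 0.0208. Ndufa7, an accessory subunit of the peripheral arm, ranged from 31.8 to 47.4 CPM (median 34.3) in air and from 22.8 to 30.2 CPM (median 28.0) in exposed lungs. Those groups did not overlap, and its change of -0.40 ± 0.0817 (edgeR adjusted p = 0.0255) was the largest drop among the nuclear members. Ndufb2, another membrane arm subunit, had a median of 39.4 CPM (34.2 to 47.6) in air and 29.4 CPM (25.1 to 37.0) in exposed lungs, a log2 change of -0.38 ± 0.0828 (edgeR adjusted p = 0.0288). Its groups overlapped, with 8 of 8 exposed libraries below the air mean.

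Ndufs8, a core subunit that carries iron-sulfur clusters, stood at 35.1, 39.9 and 48.2 CPM in the lowest, median and highest air library and at 30.7, 32.8 and 37.1 CPM in exposed ones, with a log2 change of -0.29 ± 0.0672 (edgeR adjusted p = 0.0288). It was the only called gene among the 7 nuclear core subunits, which had a median of -0.16, while 10 of the 24 accessory subunits were called and had a median of -0.23. That split was made after the values were seen. The other called accessory subunits were Ndufa11, Ndufa8, Ndufc2, Ndufa2, Ndufa5, Ndufa6 and Ndufa13, with log2 fold changes between -0.23 and -0.32. Ndufs1, the largest core subunit, had overlapping values of 83.0 to 93.5 CPM in air and 78.7 to 96.1 CPM in exposed lungs and a log2 fold change of -0.01 ± 0.0432.

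Complex II, succinate dehydrogenase, is also an enzyme of the citrate cycle and has no mitochondrially coded subunit. None of its 4 members was called at day 27, and their median was -0.14. Sdha, the flavoprotein, stood at 177, 191 and 200.1 CPM in the lowest, median and highest air library and at 180, 183 and 192 CPM in exposed ones, with a log2 change of -0.04 ± 0.034 (edgeR adjusted p = 0.518). Every exposed library lay within the air range. The iron-sulfur subunit Sdhb (-0.15 ± 0.0506) and the membrane anchors Sdhc (-0.13 ± 0.0414) and Sdhd (-0.16 ± 0.0543) had edgeR adjusted p values of 0.0708, 0.0665 and 0.0799, and each was lower at an unadjusted p under 0.05.

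Complex III, the cytochrome bc1 complex, had 7 nuclear members with a median of -0.15. Of these 3 fell (3.33% of all genes did), all small subunits around the core. Uqcrq, which binds near cytochrome b, stood at 27.9, 32.5 and 43.4 CPM in the lowest, median and highest air library and at 25.0, 26.1 and 30.6 CPM in exposed ones. Its groups overlapped, with 8 of 8 exposed libraries below the air mean, and its log2 fold change was -0.33 ± 0.0782 (edgeR adjusted p = 0.0322). Uqcr10 fell by 0.33 and Uqcrb by 0.24 on the log2 scale (edgeR adjusted p = 0.0414 and 0.0464). The core subunit Uqcrc2 had nearly equal values, with air libraries at 121 to 130 CPM and exposed ones at 122 to 131 CPM. Its log2 fold change was 0.01 ± 0.0305. The Rieske iron-sulfur protein Uqcrfs1 (-0.14), the core subunit Uqcrc1 (-0.15) and the hinge protein Uqcrh (-0.14) were not called.

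Complex IV, cytochrome c oxidase, had 16 nuclear members with a median of -0.21 (15 below 0), and 5 fell (3.33% of all genes did). Cox5b, a subunit on the matrix side, stood at 69.49 CPM in the lowest, 79.4 in the median and 87.7 in the highest air library. In exposed lungs it stood at 62.3, 66.4 and 69.47 CPM, so the groups did not overlap, by a narrow margin. Its log2 fold change was -0.25 ± 0.0472 (edgeR adjusted p = 0.0208). Cox8a, the ubiquitous form of the smallest subunit, had a median of 110 CPM (93.3 to 133) in air and 89.1 CPM (72.1 to 97.8) in exposed lungs, a change of -0.32 ± 0.0726 (edgeR adjusted p = 0.0288). Cox6a1 (-0.29 ± 0.0758), Cox4i1 (-0.23 ± 0.0597) and Cox6c (-0.21 ± 0.0589) had edgeR adjusted p values of 0.0371, 0.0382 and 0.0451. Cox4i1, which binds ATP and takes part in assembly, had 1 exposed library at 239 CPM above the air mean of 237 CPM. The lung and hypoxia isoform Cox4i2 had a change of -0.20 ± 0.0743 and was not called (edgeR adjusted p = 0.101). Ndufa4, named for complex I but a subunit of complex IV, had a change of -0.23 ± 0.0697 (edgeR adjusted p = 0.0571).

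Complex V, the ATP synthase, had 15 nuclear members, all below 0 with a median of -0.21, and 6 fell (3.33% of all genes did). Atp5g2, a copy of the c subunit that forms the rotating ring, stood at 131 CPM in the lowest, 150 in the median and 190 in the highest air library and at 108, 123 and 136 CPM in exposed ones. Its groups overlapped, with 8 of 8 exposed libraries below the air median, and its log2 fold change was -0.32 ± 0.0693 (edgeR adjusted p = 0.0288). Atp5g3, another c subunit gene, fell with a change of -0.22 ± 0.054 (edgeR adjusted p = 0.0322), and the remaining copy Atp5g1 had a change of -0.25 ± 0.0873 and was not called (edgeR adjusted p = 0.0843). The central stalk subunits Atp5d (-0.28) and Atp5e (-0.29), the stator subunit Atp5h (-0.21) and the oligomycin-sensitivity subunit Atp5o (-0.21) were called. The catalytic beta subunit Atp5b was the most counted nuclear member, with an air median of 747 CPM and an exposed median of 696 CPM, and had a change of -0.08 ± 0.0404 (edgeR adjusted p = 0.198). The gamma subunit Atp5c1 had a change of -0.05 ± 0.0342. Atp5f1 is uncertain, since its name has 2 identifiers at 76.1 and 76.5 CPM that may share reads, with log2 fold changes of -0.08 and -0.14.

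**Figure D2:**
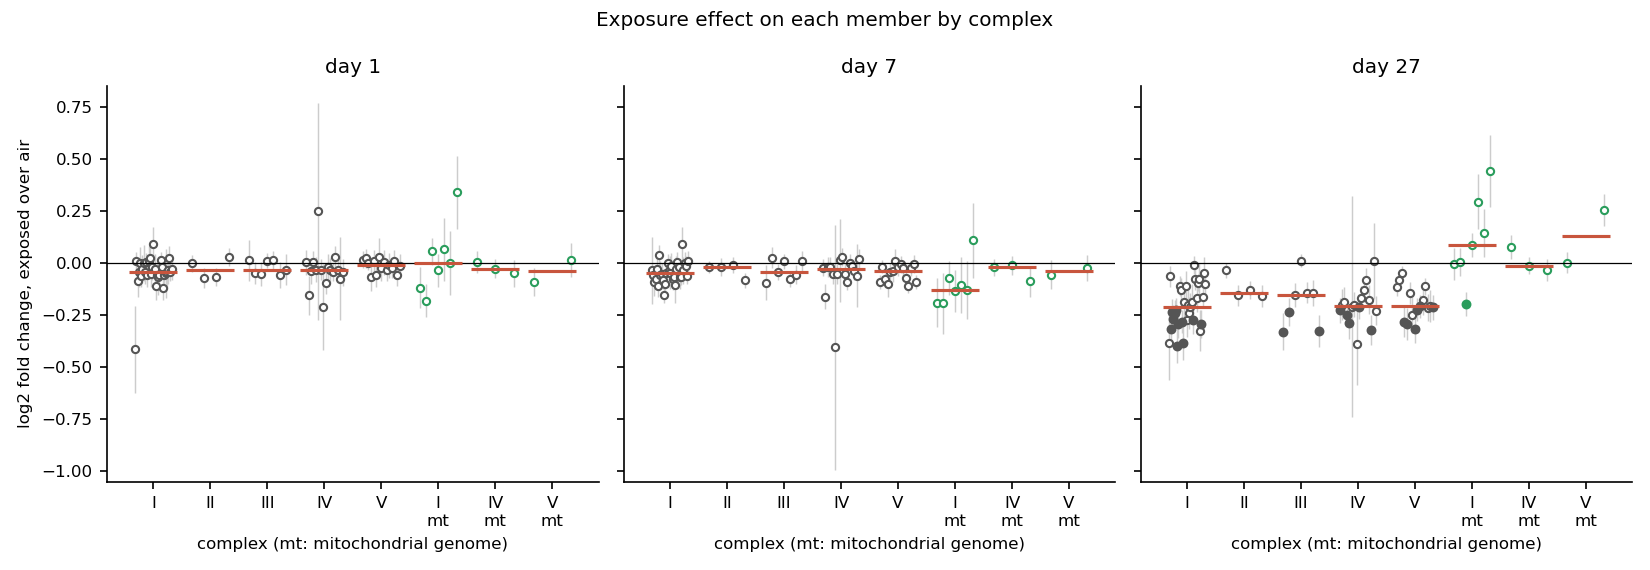
Log2 fold change of exposed over air for each member (points, with SE as vertical bars) by complex at days 1, 7 and 27, as estimated by edgeR. Filled points had an adjusted p under 0.05, grey points are nuclear, green points mitochondrial (mt), and red bars are medians. At day 27 the nuclear medians of complexes I to V lie between -0.14 and -0.21 and 26 points are filled; at days 1 and 7 none is. Both genes assigned to no complex are left out.

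Across complexes, 46 of the 75 nuclear members had 8 of 8 exposed libraries below the air mean at day 27, where 11.4% of all genes did. That mean took all 8 air libraries, so the close pair counted as 2. Exposed and air libraries did not overlap for 2 of the 75, Cox5b and Ndufa7, where 0.225% of all genes had all exposed below all air libraries. None of the 12 mitochondrial members showed either pattern.

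**Figure D3:**
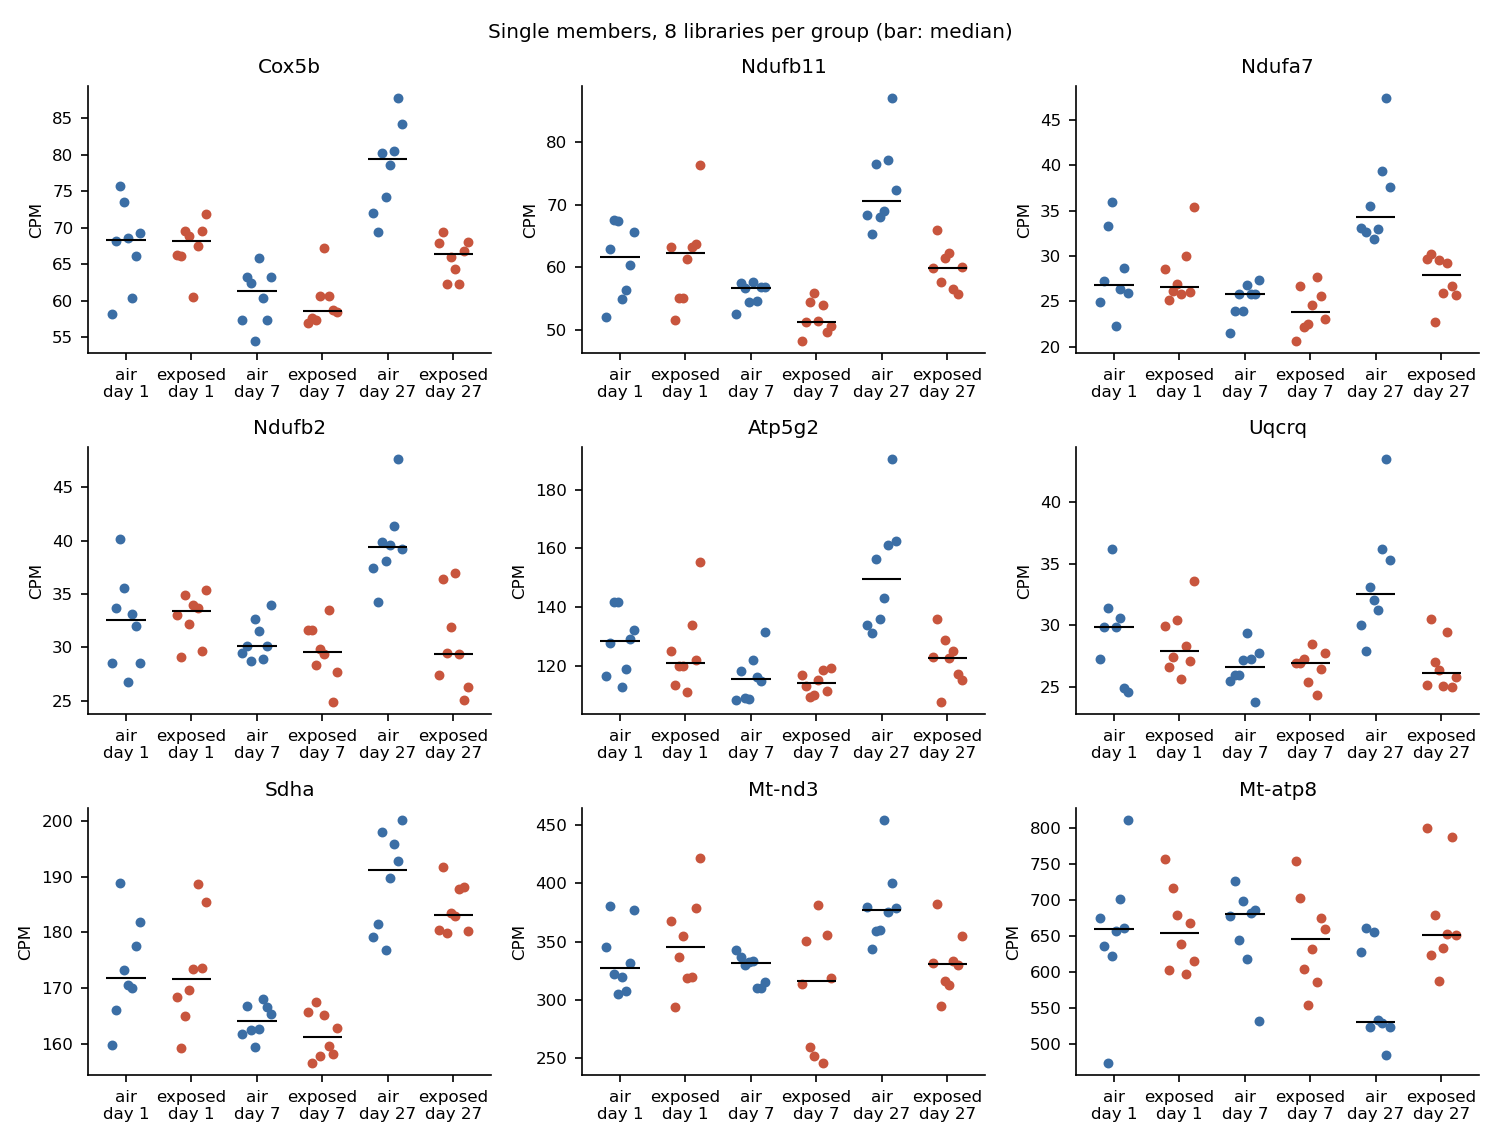
CPM per library of 9 members in the 6 groups (blue air, red exposed, bars are medians, axes do not start at 0). Cox5b and Ndufa7 have no overlap between the groups of day 27, Sdha overlaps widely, and Mt-atp8 is higher in exposed libraries of that day, with medians of 532 and 652 CPM.

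At day 27 the mitochondrial members as a group were not lower in exposed than in air lungs. Of the 12, 8 had a log2 fold change above 0, 1 was called lower and none was called higher. The called gene, Mt-nd3, encodes a small membrane subunit of complex I and stood at 344, 377 and 454 CPM in the lowest, median and highest air library and at 295, 331 and 382 CPM in exposed ones. Its groups overlapped, its log2 fold change was -0.20 ± 0.0573 (edgeR adjusted p = 0.0491), and with air libraries 3 and 6 summed the edgeR adjusted p was 0.0762. At an unadjusted p under 0.05, 3 of the 12 were higher, where 12.4% of all genes were. Mt-atp8, which encodes a small subunit of complex V, stood at 486, 532 and 662 CPM in the lowest, median and highest air library and at 588, 652 and 800.2 CPM in exposed ones. Every exposed library lay above the air mean of 574 CPM, the groups overlapped, and the change of 0.26 ± 0.0766 was not called (edgeR adjusted p = 0.0549). Mt-nd4l (0.29 ± 0.132) and Mt-nd6 (0.44 ± 0.173) had edgeR adjusted p values of 0.169 and 0.12.

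Mt-atp8 overlaps Mt-atp6 and Mt-nd4l overlaps Mt-nd4 on the same transcripts, so reads in the overlap could be counted for either gene. Mt-atp6 itself had a log2 fold change of 0.00 ± 0.0509 and Mt-nd4 of 0.09 ± 0.056. The 3 complex IV subunits of the mitochondrial genome, which form its catalytic core, had changes of 0.08 ± 0.0585 (Mt-co1), -0.01 ± 0.0413 (Mt-co2) and -0.04 ± 0.0525 (Mt-cox3). Mt-nd1, Mt-nd2 and Mt-nd5 had changes of 0.00 ± 0.0778, 0.01 ± 0.0675 and 0.14 ± 0.117. Cytochrome b, named Mt-cytb in the tables, was not caught by the name rule; as a gene outside the set it had a change of -0.06 ± 0.0602 (edgeR adjusted p = 0.519).

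Single libraries decided how many members passed the threshold at day 27. The count of called members, 26 of 87, became 41 when air library 2 was left out and 42 when exposed library 2 was. Leaving out air library 3, 5, 6, 7 or 8 gave 3, 11, 0, 5 and 4 calls, and leaving out exposed library 1, 3, 5, 6, 7 or 8 gave 4, 0, 16, 10, 3 and 2. The share of all genes called lower moved too, so these shifts are not particular to the members. It was 3.33% with all libraries, 7.14% without air library 2 and 6.08% without exposed library 2. Without air library 6 it was 0.0985%, and without exposed library 3 it was 0.0351%. The nuclear median log2 fold change stayed between -0.17 and -0.22 in every one of these fits, and all 16 members named under the rule that were called kept their sign. With 1 estimated surrogate variable, 4 members were called and the nuclear median was -0.10, where 0.282% of all genes were called lower.

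No member was called at day 1 or day 7. At day 1 the median log2 fold change was -0.03 over the nuclear members (52 of 75 below 0), -0.01 over the mitochondrial members and 0.00 over all genes. At that day 1 of 75 nuclear members was lower at an unadjusted p under 0.05, where 4.06% of all genes were, and 0.0279% of all 14314 genes were called lower (0% higher). Ndufs3, a core subunit of complex I, was that gene, with a change of -0.12 ± 0.0557 (edgeR adjusted p = 0.567). The sums of the nuclear members were 5506 to 6609 CPM in air (median 5855) and 5483 to 6649 CPM in exposed lungs (median 5796), which overlapped throughout.

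At day 7 the nuclear median was -0.04 (63 of 75 below 0), the mitochondrial median -0.08 (11 of 12 below 0) and the median of all genes 0.00. In this comparison 11 of 75 nuclear members were lower at an unadjusted p under 0.05, where 4.15% of all genes were, and none of the 14259 genes was called (0% lower and 0% higher) by edgeR at an adjusted p under 0.05. The smallest p was that of Ndufb10, an accessory subunit of complex I, which stood at 52.9, 57.5 and 59.9 CPM in the lowest, median and highest air library and at 48.1, 50.9 and 56.2 CPM in exposed ones, with a change of -0.15 ± 0.0389 (edgeR adjusted p = 0.304). Of the 8 exposed libraries, 6 lay below the lowest air library. The nuclear sums were 5339 to 5872 CPM in air (median 5480) and 5203 to 5628 CPM in exposed lungs (median 5325), and 7 of 8 exposed libraries lay below the air median.

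A call at day 27 and none at earlier days does not show that the effect differed between days, so the difference was tested in 1 fit of all 48 libraries. No member was called in any of the 3 contrasts (0% of all 14852 genes were for day 7 minus day 1, 0.498% for day 27 minus day 1 and 0.0202% for day 27 minus day 7). For day 27 minus day 1 the median difference of the log2 fold changes was -0.17 over the nuclear members and 0.11 over the mitochondrial ones. At an unadjusted p under 0.05, 35 of the 75 nuclear members had a more negative effect at day 27 than at day 1, where 7.59% of all genes did. Ndufb2 came nearest, with a difference of -0.41 ± 0.104 (edgeR adjusted p = 0.0546), followed by Cox5b with -0.25 ± 0.067 (edgeR adjusted p = 0.063).

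The air animals themselves differed between days. These contrasts were added after the data were seen. Those that involve air day 27 share its libraries with the exposure comparison of that day, and each of the others shares the libraries of its groups with an exposure comparison, so none is independent evidence for it. From air day 7 to air day 27, 65 of the 75 nuclear members were called higher with a median log2 fold change of 0.31 (20% of all genes were called higher), and 4 of the 12 mitochondrial members were called lower with a median of -0.16 (19.7% of all genes were called lower). Another of the 12 was called higher, and with closest pairs summed 1 was called lower and 1 higher. From air day 1 to air day 27, 38 of the 75 were called higher with a median of 0.15 (9.15% of all genes), and from air day 1 to air day 7, 8 were called lower with a median of -0.14 (3.06% of all genes; 1 with closest pairs summed). Between exposed lungs of day 1 and day 27 the nuclear median was -0.01, with 1 member called lower and 1 higher (5.65% and 5.87% of all genes). Between exposed lungs of day 7 and day 27 it was 0.13, with 26 called higher (6.36% of all genes). The exposed group of day 27, at a median sum of 5887 CPM, stood near the air group of day 1 at 5855 CPM, and the air group of day 27 had the highest median of the 6 groups.

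Medians by group follow for single members that stood out at day 27. Their order is tied to that choice and adds no support. Cox5b had medians of 68.4 and 61.4 CPM in air at days 1 and 7 and 79.4 CPM in air at day 27, against 68.2, 58.6 and 66.4 CPM in exposed lungs of the 3 days. Ndufa7 had medians of 26.8, 25.8 and 34.3 CPM in air and 26.5, 23.8 and 28.0 CPM in exposed lungs. For Mt-atp8 the air group of day 27 was instead the low one, with a median of 532 CPM against 659 and 680 CPM in air at days 1 and 7, and 654, 646 and 652 CPM in exposed lungs.

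Genes that serve the chain were described from lists of textbook members, against 3.33% of all genes called lower and 2.18% called higher at day 27. Of 11 tested genes of outer and inner membrane import, through which nuclear subunits enter the organelle, all were below 0 with a median of -0.20 and 4 fell, namely Tomm6, Tomm20, Timm13 and Timm8b. Tomm20, a receptor of the outer membrane, stood at 97.5 to 122 CPM in air and 82.2 to 96.4 CPM in exposed lungs, with no overlap and a change of -0.19 ± 0.0482 (edgeR adjusted p = 0.0353). Of 39 assembly factors, 2 fell, Sdhaf1 (-0.31, a factor for the iron-sulfur subunit of complex II) and Uqcc3 (-0.21, a factor for complex III), and the median was -0.07. Of 15 electron carriers and ubiquinone genes, 2 fell, Etfb (-0.23), which passes electrons from fatty acid oxidation to ubiquinone, and Cyc1 (-0.19), the cytochrome c1 of complex III. Cytochrome c itself, Cycs, had a change of -0.08 ± 0.0423 (edgeR adjusted p = 0.24).

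Genes of the citrate cycle (11 tested, median -0.03) and of mitochondrial genome expression (12 tested, median -0.05) had no call at day 27. Tfam, which packages mitochondrial DNA and starts its transcription, had a change of -0.12 ± 0.0498 (edgeR adjusted p = 0.14). Of 8 regulators of nuclear respiratory genes none was called, 7 of 8 were above 0, and the median was 0.07. Ppargc1a, the coactivator PGC-1alpha, ranged from 3.63 to 8.85 CPM in air and 4.77 to 8.56 CPM in exposed lungs, with a change of 0.06 ± 0.176 (edgeR adjusted p = 0.841). With air libraries 3 and 6 summed, no gene of these 6 lists was called.

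Ribosomal protein genes moved with the nuclear members. Of 68 cytosolic ribosomal proteins tested at day 27, 67 were below 0 with a median of -0.23, and 35 fell (3.33% of all genes were called lower). Their sum ranged from 23413 to 32759 CPM in air (median 27423) and from 22809 to 27069 CPM in exposed lungs (median 23665). Of 70 mitochondrial ribosomal proteins, 68 were below 0 with a median of -0.14, and 9 fell. With air libraries 3 and 6 summed, 2 of the cytosolic and 0 of the mitochondrial ones were called, where 0.147% of all genes were called lower. Over the 48 libraries, after each group mean was removed, the nuclear members' mean log2(CPM + 1) correlated with that of the cytosolic ribosomal proteins (Pearson r = 0.84) and of the mitochondrial ones (r = 0.90). These values share library and depth, and no p is given.

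The nuclear complexes moved together from animal to animal, with Pearson r between 0.77 and 0.95 for every pair of complexes over the 48 libraries. Against the mitochondrial members' mean level the nuclear level had r = -0.40 (Spearman rho = -0.42). That inverse relation was uneven: Mt-nd4l and Mt-nd5 had r = -0.70 and -0.69 with the nuclear members, while Mt-co2 had 0.35 and Mt-nd3 had 0.22. Among nuclear members Atp5g2 followed the rest most closely (r = 0.92), and Ndufa1 (r = -0.19), Ndufs1 (r = -0.18) and the muscle isoform Cox6a2 (r = -0.07) did not follow them. Ndufa1 and Cox6a2 had means of only 6.46 and 1.97 CPM, which limits precision, while Ndufs1 had 86.7 CPM. Library total count had r = 0.34 with the nuclear and -0.20 with the mitochondrial level.

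**Figure D4:**
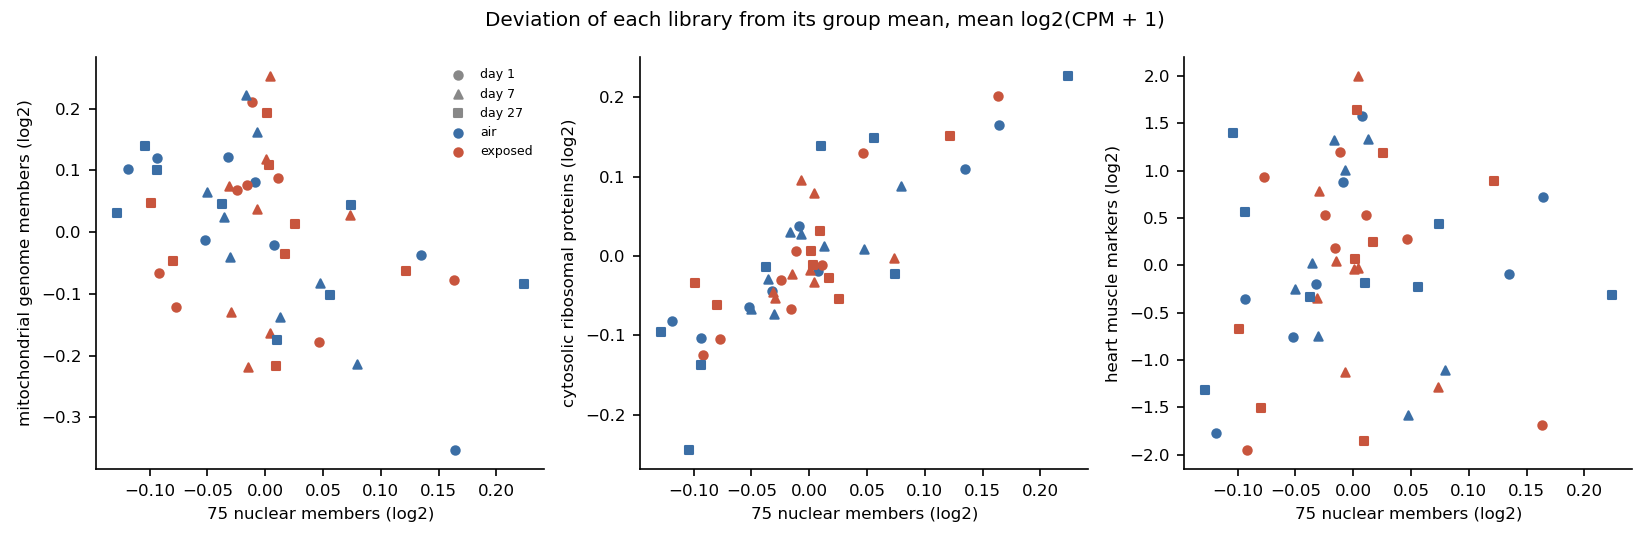
Deviation of each of the 48 libraries from its group mean in mean log2(CPM + 1), with the 75 nuclear members on the horizontal axis and 3 other gene sets on the vertical axes (blue air, red exposed, symbols mark days). The nuclear level rises with cytosolic ribosomal proteins (r = 0.84), falls with mitochondrial genome members (r = -0.40) and has r = 0.07 with heart muscle markers.

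Cell type markers changed beside the nuclear members at day 27 in some lists. Among all genes, 3.33% were called lower and 2.18% higher at that day. The 4 B cell markers had a median of -0.68 with 1 called (Cd79a, -0.80), summing to 56.8 to 91.2 CPM in exposed lungs. In air they summed to 179 and 187 CPM in libraries 3 and 6, the closest pair, and to 67.9 to 123 CPM in the others. The 3 tested endothelial markers had a median of -0.17 with 2 called, and the 5 tested alveolar macrophage markers a median of -0.13 with 1 called. Ciliated cell markers (3 tested, 1 called) and alveolar type 2 markers (5 tested, none called) had medians of 0.00 and 0.04. Neutrophil, red cell, club cell, skeletal muscle and brown fat markers had medians of 0.07, -0.10, -0.37, -0.25 and -0.40, with none called. With air libraries 3 and 6 summed, no gene of these marker lists was called, and the medians were -0.58 for B cells, -0.18 for endothelium, -0.06 for alveolar macrophages and -0.06 for ciliated cells. Across the 48 libraries the nuclear level had r = 0.40 with endothelial, 0.38 with neutrophil, 0.28 with B cell and -0.41 with ciliated cell markers. Their part in the nuclear members' drop was not tested.

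Some subunits of complex IV have a ubiquitous form and a form typical of heart and skeletal muscle. Cox6a2, the muscle form, ranged over the 48 libraries from 0.279 to 6.79 CPM (24.4-fold), while the ubiquitous Cox6a1 ranged from 110 to 204 CPM (1.86-fold). Cox6a2 followed Myh6, the atrial myosin heavy chain, which ranged from 0.404 to 156 CPM. On log2(CPM + 1) the Pearson r was 0.88 and Spearman rho was 0.93 over 48 libraries (both permutation p = 1.0e-05, the smallest that 100000 permutations can give, and 6.0e-05 after Benjamini-Hochberg adjustment over 6 isoforms). It was 0.89 without the 2 libraries farthest from the median of Myh6, and between 0.79 and 0.95 within each of the 6 groups. The permutation p-values here treat all 48 libraries as separate animals, although each of the 4 close pairs may be 1 animal. The muscle form Cox8b followed Myh6 far less (r = 0.30, permutation p = 0.0389, adjusted 0.117), and Cox6a1, Cox8a, Cox4i1 and Cox4i2 had pooled r between -0.02 and 0.12. Pooled values hide differences between groups of 8 libraries. For Cox6a1, r with Myh6 was -0.70 in air and -0.86 in exposed lungs of day 7. Over the 6 groups, r ranged from -0.62 to 0.42 for Cox8a and from -0.51 to 0.58 for Cox4i1.

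Neither muscle form was called in any exposure comparison. At day 27 Cox6a2 stood at 0.583, 1.87 and 5.46 CPM in the lowest, median and highest air library and at 0.362, 1.38 and 4.37 CPM in exposed ones, which overlapped throughout (log2 fold change -0.21 ± 0.531). Cox8b had a change of 0.01 ± 0.183, and Cox6b2, known as the testis form, a change of -0.39 ± 0.199 (edgeR adjusted p = 0.217). The 7 tested heart muscle markers had a median log2 fold change of 0.52 at day 1, -0.02 at day 7 and -0.26 at day 27, with none called, and their level had r = 0.07 with that of the nuclear members.

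**Figure D5:**
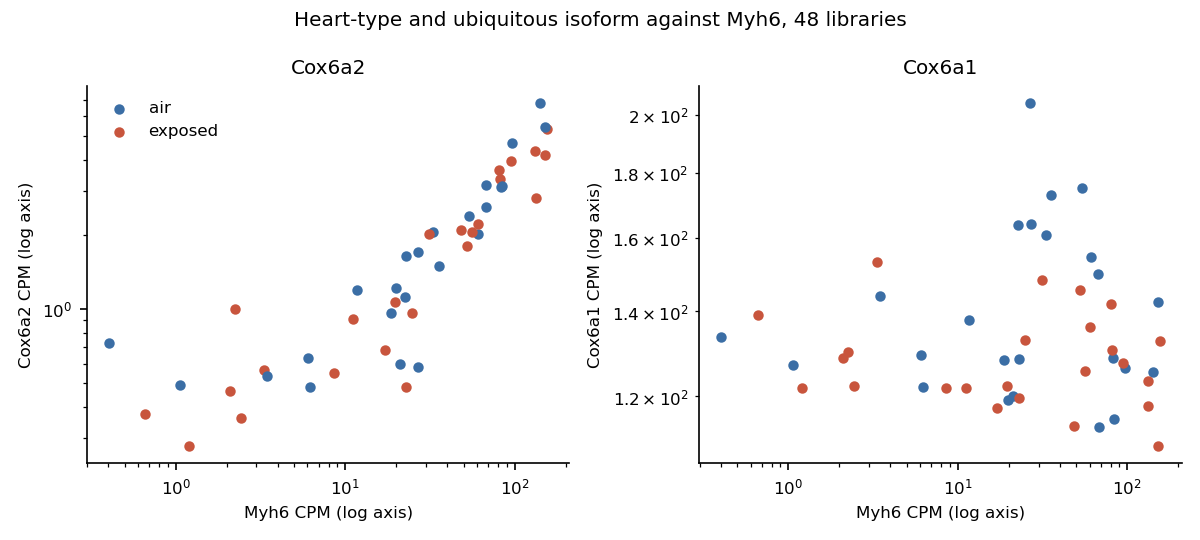
CPM of Cox6a2 (left) and Cox6a1 (right) against Myh6 in the 48 libraries, on log axes, blue air and red exposed. Cox6a2 rises with Myh6 over its whole range (0.404 to 156 CPM), and Cox6a1 stays within 110 to 204 CPM.

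Motifs in the promoter windows occurred both in members that fell and in members that were not called. Of the members with a window, 15 of 20 called at day 27 and 25 of 46 not called held at least 1 of the 3 motifs, and the median log2 fold change was -0.21 with a motif and -0.18 without. Cox5b and Uqcrc2 both hold the ETS core in the windows printed above, and Cox5b fell while Uqcrc2 had a change of 0.01.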

How the data were processed

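Lung RNA of 48 rats was measured in 3 deposited tables, 1 per day. The deposited values are expected counts per gene, which the authors estimated from the reads; STAR 2.6.1d, Salmon 1.10.1, Trim Galore 0.6.7, cutadapt 3.4, bcl2fastq 2.19 and the build Rnor_6.0 are named per the submitters' processing notes, and 5.58% of the values are not whole. They were rounded to whole counts. Each day was fitted alone with edgeR 4.0.16 in R 4.3.3 (TMM, filterByExpr, robust quasi-likelihood), 8 libraries against 8, with Benjamini-Hochberg adjustment over all genes tested and a threshold of 0.05. CPM used TMM factors over all 48 libraries, except the membership limit, which used plain totals. Differences between days came from 1 fit of all 48. Limma 3.58.1, DESeq2 1.42.0 and sva 3.50.0 served alternatives. The fit was tested on simulated counts drawn independently for each gene and library, which cannot speak for calls that depend on a close pair. The labels name no culture, litter or batch. P-values measure the spread between these libraries. The main fits treat each library as a separate animal, although each of the 4 close pairs may be 1 animal.

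Members, gene lists and tests were chosen with earlier results of these data known. Named are, for each day and genome, at most 12 called members with the smallest p, all mitochondrial members, the most counted and smallest-p nuclear member of each complex (1 of these is not reported here), the tissue isoforms, the called list gene with the smallest p, and Ppargc1a, Tfam and Cycs. Further members are named as called or as examples, chosen after their values were seen.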

Additional observations from a re-analysis of the deposited data

Results flagged for a closer look

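Among 294 groups of 8 libraries examined, 28 held a highest or lowest library whose gap to the next exceeded Dixon's 95% critical share of the group's range, in 14 libraries. Chance flags about 1 in 20 groups by the construction of that limit. The groups examined are not independent, since members share libraries, so the number of flags is not set against that rate.

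Exposed library 8 of day 1 was the highest of its group for 7 nuclear members: Cox8a at 111 CPM (next 94.9), Atp5g3 at 117 CPM (next 103), Sdhd at 113 CPM (next 101), Sdhc at 90.7 CPM (next 81.9), Uqcrfs1 at 91.7 CPM (next 83.1), Cox6c at 93.9 CPM (next 79.4) and Atp5l at 106 CPM (next 90.8). Air library 3 of day 1 was the lowest in the mitochondrial sum, 25881 CPM against 30871 in the next, and in the ratio of mitochondrial to nuclear sums, 3.92 against 5.03, and it was the highest for Uqcrfs1 at 90.1 CPM. Exposed library 3 of day 1 was the highest for Mt-nd1 at 2588 CPM, Mt-nd2 at 2462 CPM and Mt-nd4 at 2604 CPM.

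At day 7, exposed library 5 had the highest nuclear sum, 5628 CPM against 5372 in the next, and the highest Cox5b at 67.2 CPM. Exposed library 1 of that day was highest for Mt-atp6 at 3829 CPM and for Cox6a2 at 4.18 CPM, exposed library 7 for Cox4i2 at 37.7 CPM, air library 8 for Cox4i1 at 218 CPM, and air library 2 for Cox8b at 5.62 CPM.

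At day 27, exposed library 2 was the highest for Sdhb at 70.1 CPM, Sdhd at 110 CPM and Cox4i1 at 239 CPM, exposed library 1 for Mt-nd1 at 2451 CPM, and air library 7 for Sdhb at 81.3 CPM. Cox6a2 was highest in air library 2 of day 27 at 5.46 CPM and in air library 7 of day 1 at 6.79 CPM, and Cox6b2 in exposed library 5 of day 1 at 4.21 CPM.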

How the results depend on the processing

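At day 27 the count of called members was 26 (25 nuclear lower). It was 40 with DESeq2 (38 nuclear), 49 in 1 fit of all 48 libraries (48 nuclear), 4 with 1 surrogate variable (4 nuclear, with a nuclear median of -0.10) and 0 with closest pairs summed (0 nuclear). The share of all genes called lower was 3.33% in the main fit, 6.00% with DESeq2 and 8.15% in 1 fit of all 48 libraries. With 1 surrogate variable it was 0.282%, and with closest pairs summed 0.147%. Leaving out 1 library at a time gave 0 to 42 called members and 0 to 40 nuclear ones called lower, and the nuclear median kept its sign. In those fits 0.0351% to 7.14% of all genes were called lower. In the pair-summed fit the edgeR adjusted p of the 16 called named members was 0.0512 to 0.0785. The cause of the shifts between fits was not tested. At day 1 the nuclear median was 0.03 with 1 surrogate variable, against -0.03. The mitochondrial median of day 1, -0.01, was 0.02 with log2 total count as a covariate and 0.00 without air library 1 or exposed library 6 of that day. At days 7 and 27 the nuclear and mitochondrial medians kept their signs in every fit run. The mitochondrial median of exposed day 27 minus exposed day 7 was 0.02, and -0.003 with closest pairs summed. No paired analysis was possible because replicate numbers were given in accession order and the labels pair no animals. Counts under about 10 CPM, as for Cox6a2, Cox6b2, Cox8b, Ndufa1 and Atp5s, limit precision.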

Other observations

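Cox14, a complex IV assembly factor near the count limit, had the largest drop among the assembly factors at day 27, from a median of 2.10 CPM (1.66 to 2.39) in air to 1.26 CPM (0.554 to 2.08) in exposed lungs, a log2 fold change of -0.65 ± 0.214 that was not called (edgeR adjusted p = 0.0724). Coa5, another such factor, was instead above the air mean in 8 of 8 exposed libraries, with a change of 0.10 ± 0.0386 (edgeR adjusted p = 0.104). Among the regulators, Gabpa, the DNA-binding subunit of GABP, had a change of 0.17 ± 0.0641 and Esrra, an orphan nuclear receptor that works with PGC-1alpha, a change of -0.20 ± 0.0776 (edgeR adjusted p = 0.11 and 0.109). Polg, the mitochondrial DNA polymerase, was above the air mean in 8 of 8 exposed libraries, with a change of 0.14 ± 0.0518 (edgeR adjusted p = 0.0966). These genes were chosen after their values were seen.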
